A study of Rattus norvegicus with 10 samples.

Results

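The proteasome genes of the rat were examined in the testes of 6-day-old pups. They were chosen by name: every probe whose RefSeq transcript belongs to a gene with a symbol starting Psma, Psmb, Psmc, Psmd, Psme, Psmf or Psmg was taken. This gave 46 genes out of 15154 with a symbol on the array, measured by 52 probes. Of these, 44 encode subunits, assembly chaperones, activators or an inhibitor of the proteasome. The other 2, Psmc3ip, a meiotic recombination cofactor, and Psme3ip1, a binding partner of Psme3, were not counted among these. Psmb11, Psmd11, Psmg1 and Psmg3 had no matched probe and were not analysed here.

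The proteasome is the protease that degrades proteins tagged with ubiquitin. Its 20S core is a barrel of outer alpha rings and inner beta rings, and the beta subunits encoded by Psmb5, Psmb6 and Psmb7 carry the active sites. The 19S cap, made of ATPases (Psmc genes) and other subunits (Psmd genes), recognises, unfolds and feeds in the substrate. Interferon-gamma induces Psmb8, Psmb9 and Psmb10, which replace Psmb5, Psmb6 and Psmb7 in the immunoproteasome and shift its cleavage toward peptides for presentation on major histocompatibility complex (MHC) class I. In the testis, meiotic germ cells use Psma8 in place of Psma7.

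Each of 10 one-colour arrays received total RNA from testes of male pups, taken on postnatal day 6. All pups came from crosses of Brown Norway males with Sprague Dawley females. The fathers had received saline (n = 5) or BEP (n = 5) over 9 weeks, and then recovered for another 9 weeks. BEP commonly stands for bleomycin, etoposide and cisplatin, a combination used against testicular cancer, but no label names the drugs. The code of the sire includes a C for 5 arrays and a T for 5. Reading C as saline and T as BEP is an inference that no label states. Arrays are called C1 to C5 and T1 to T5 here, numbered by accession within a group. The design text puts a 2 beside the testes, but how many pups gave RNA to an array is not stated, so p-values measure the spread between these arrays, each from 1 sire code. The fathers and not the pups were exposed, and no drug was given to the animals measured.

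C1, C2, C3, T1 and T2 lay on slide 1, and C4, C5, T3, T4 and T5 on slide 2. Depending on the array, the 75th percentile of signal was 1525 to 2686 units, and 70.5% to 74.8% of probes stood well above background. A level below is the log2 signal minus the log2 of that percentile on the same array. It depends on each probe's own brightness, so levels of different genes are not ranked. Amh and Inha of Sertoli cells, Ddx4 and Dazl of germ cells and Cyp17a1 of Leydig cells were well above background on all 10 arrays, while Lhcgr was so on 0. The whole testis was measured, so a change in the number of a cell type and a change in RNA per cell cannot be told apart.

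The promoters of 4 active-site genes, the constitutive Psmb5 and the immune Psmb8, Psmb9 and Psmb10, are printed to show matches to regulatory elements. Each run is the RefSeq window of the GRCr8 assembly from 250 bases before to 50 bases after the annotated start, 300 bases in all, written 5′ to 3′ on the gene's strand. The Psmb5 window lies at chr15:32047330-32047629 on the minus strand, and those of Psmb8, Psmb9 and Psmb10 at chr20:4656982-4657281 on the minus strand, chr20:4668750-4669049 on the plus strand and chr19:50743243-50743542 on the minus strand. Capitals mark matches, on either strand, to TGACNNNGC (core of the antioxidant response element), GAAA and GAAA with 2 bases between them (core of the interferon-stimulated response element), TTCNNNGAA (gamma-activated site), CCAAT and TATAAA. None of the marked matches overlap.
Psmb5 promoter: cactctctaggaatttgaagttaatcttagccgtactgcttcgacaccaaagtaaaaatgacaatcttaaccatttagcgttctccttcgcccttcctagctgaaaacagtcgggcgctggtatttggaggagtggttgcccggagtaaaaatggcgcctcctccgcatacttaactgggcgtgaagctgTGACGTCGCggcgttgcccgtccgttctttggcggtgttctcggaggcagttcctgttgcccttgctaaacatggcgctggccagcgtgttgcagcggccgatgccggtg
Psmb8 promoter: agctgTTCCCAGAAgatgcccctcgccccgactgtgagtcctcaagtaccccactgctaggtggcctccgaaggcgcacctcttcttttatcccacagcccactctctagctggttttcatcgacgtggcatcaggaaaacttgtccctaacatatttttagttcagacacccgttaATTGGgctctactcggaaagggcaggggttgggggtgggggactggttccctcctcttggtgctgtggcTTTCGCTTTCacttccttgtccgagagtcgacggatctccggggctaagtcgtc
Psmb9 promoter: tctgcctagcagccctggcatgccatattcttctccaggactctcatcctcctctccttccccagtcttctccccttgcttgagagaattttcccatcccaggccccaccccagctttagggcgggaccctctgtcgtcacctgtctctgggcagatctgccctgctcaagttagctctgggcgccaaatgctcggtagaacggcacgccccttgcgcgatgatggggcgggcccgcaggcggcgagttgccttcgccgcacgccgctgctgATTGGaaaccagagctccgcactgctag
Psmb10 promoter: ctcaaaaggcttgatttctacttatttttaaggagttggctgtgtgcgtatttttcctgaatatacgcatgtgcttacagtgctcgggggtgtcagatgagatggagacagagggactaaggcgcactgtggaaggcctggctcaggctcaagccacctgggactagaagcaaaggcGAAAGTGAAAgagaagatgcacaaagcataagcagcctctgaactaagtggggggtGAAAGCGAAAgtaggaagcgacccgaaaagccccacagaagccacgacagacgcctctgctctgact

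Psmb5 holds 1 antioxidant element core, from base 191 of its window. Psmb8 holds an interferon element core from base 247, a gamma-activated site from base 6 and a CCAAT box from base 178. In Psmb10 the interferon element core occurs from bases 178 and 234, and the Psmb9 window holds only a CCAAT box, from base 273. Psmb9 lies beside Tap1, the peptide transporter gene, on the opposite strand, and the Tap1 window holds an interferon element core as well. Of the 46 genes, 42 had a promoter in the table. The interferon core stood in 7 of the 42 (16.7%), namely Psma4, Psmb3, Psmb8, Psmb10, Psmd7, Psme2 and Psmg4, against 3.9% of all 33469 promoters. For the antioxidant core the figures were 8 of 42 (19%) and 12.1%, for the gamma-activated site 4 of 42 (9.5%) and 8.9%, for CCAAT 22 of 42 (52.4%) and 37.5%, and for TATAAA 3 of 42 (7.1%) and 14.2%. A match describes letters in the window and does not show that a factor binds there.

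Proteasome transcripts were readily measured in the neonatal testis. All 46 genes had at least 1 tested probe, that is, one well above background on at least 5 of the 10 arrays. Every array gave 50 of the 52 probes a signal well above background. The other 2 were further probes of Psma8, which passed on 0 and 2 arrays. For 37 of the 46 genes the mean level lay above the 75th percentile of the array, and for 9 it lay below. The probe with the highest mean stands for a gene with several.

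Between arrays these transcripts moved little. The SD over the 10 arrays had a median of 0.082 on the log2 scale for the 46 genes. It was 0.163 for all 21892 tested probes and 0.114 for the 6680 that were above the 75th percentile, and the SD was below 0.163 for 40 of the 46 genes. Spots of the same probe on an array differed by a median SD of 0.042 for the proteasome probes and 0.066 for all tested probes.

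Psma1, Psma7 and Psmd12 had the lowest SDs. Psma1, which encodes an alpha-ring subunit, read 2.78, 2.74, 2.82, 2.83 and 2.79 on C1 to C5 and 2.84, 2.85, 2.79, 2.8 and 2.83 on T1 to T5. Its SD was 0.033, with a range of 1.08-fold between the lowest and the highest array. For Psma7, the alpha subunit that Psma8 replaces, the levels were 3.74, 3.65, 3.77, 3.76 and 3.73 on C1 to C5 and 3.71, 3.68, 3.7, 3.77 and 3.74 on T1 to T5, with an SD of 0.039. Psmd12, a lid subunit of the cap, read 2.25, 2.25, 2.35, 2.29 and 2.31 on C1 to C5 and 2.31, 2.26, 2.26, 2.33 and 2.33 on T1 to T5, with an SD of 0.037. The groups overlapped in all 3 genes.

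**Figure D1:**
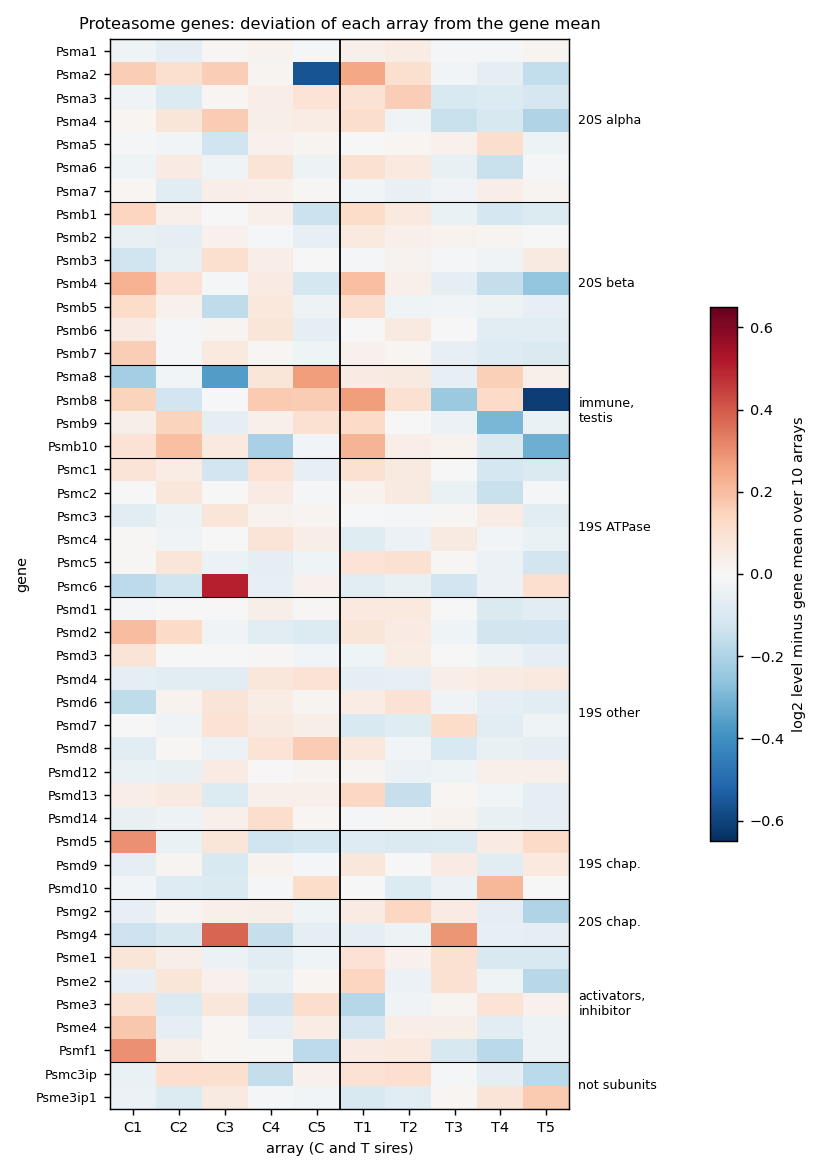
Log2 level of each of the 46 genes (rows, grouped by role) on each of the 10 arrays (columns), as the difference from the gene's mean over all arrays. Most cells are pale. Strong colours stand alone, such as Psma2 on C5 (0.56 below its mean), Psmc6 on C3 (0.50 above) and Psmb8 on T5 (0.61 below).

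The constitutive active-site subunits kept narrow ranges. Psmb5, the chymotrypsin-like site, read 3.51, 3.42, 3.23, 3.46 and 3.36 on C1 to C5 and 3.5, 3.36, 3.37, 3.36 and 3.34 on T1 to T5. The mean level was 3.39 ± 0.11 for C and 3.39 ± 0.07 for T (SD, n = 5 each), and C3 was the lowest array. Psmb6, the caspase-like site, read 2.0, 1.94, 1.97, 2.03 and 1.89 on C1 to C5 and 1.95, 2.01, 1.95, 1.87 and 1.88 on T1 to T5. Its groups overlapped over almost their whole range. Psmb7, the trypsin-like site, read 2.52, 2.35, 2.43, 2.38 and 2.34 on C1 to C5 and 2.39, 2.38, 2.31, 2.28 and 2.27 on T1 to T5. C1 was the highest array, and the 3 lowest were T3, T4 and T5, all on slide 2. The T minus C differences on the log2 scale were -0.0067 ± 0.067 (SE) for Psmb5, -0.035 ± 0.054 (SE) for Psmb6 and -0.076 ± 0.058 (SE) for Psmb7. The limma p adjusted over all tested probes was 0.998 for all 3.

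The immune subunits were all detected, each well above background on all 10 arrays, and had larger SDs than their constitutive counterparts. Psmb8 read -0.78, -1.05, -0.93, -0.76 and -0.76 on C1 to C5 and -0.66, -0.83, -1.17, -0.81 and -1.54 on T1 to T5. T5 was the lowest, followed by T3 and C2, and the lowest and highest arrays differed 1.85-fold. Psmb9 read 0.57, 0.67, 0.47, 0.56 and 0.63 on C1 to C5 and 0.66, 0.53, 0.49, 0.23 and 0.49 on T1 to T5. T4 stood lowest here, and T5 and T3 lay within the range of the C arrays. Psmb10 read 3.15, 3.25, 3.12, 2.85 and 3.04 on C1 to C5 and 3.28, 3.1, 3.08, 2.96 and 2.74 on T1 to T5. T5 and C4 were low and T1 and C2 high. The SDs were 0.263 for Psmb8, 0.127 for Psmb9 and 0.169 for Psmb10, and 0.085, 0.055 and 0.074 for Psmb5, Psmb6 and Psmb7. These SDs were not tested against each other.

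The groups overlapped for each immune subunit, and the limma adjusted p was 0.998 for all 3. The mean level of Psmb8 was -0.86 ± 0.13 for C and -1.0 ± 0.36 for T (SD, n = 5 each), a T minus C difference of -0.14 ± 0.15 (SE). For Psmb9 the difference was -0.10 ± 0.081 (SE) and for Psmb10 -0.052 ± 0.11 (SE). Single arrays decided these sizes. The Psmb8 difference was -0.0074 without T replicate 5 and -0.23 without T replicate 1, that of Psmb9 was -0.038 without T replicate 4, and that of Psmb10 ran from -0.11 without T replicate 1 to 0.021 without T replicate 5. Signals of different probes have no common scale, so the immune over constitutive ratio was compared only as a change of the log2 difference between arrays. Relative to its mean over all arrays, Psmb8 over Psmb5 was 0.029, -0.16, 0.16, 0.11 and 0.20 on C1 to C5 and 0.16, 0.13, -0.22, 0.15 and -0.56 on T1 to T5. T5 and T3 had the lowest ratios, and the other T arrays lay inside the C range. The T group was lower by -0.14 ± 0.16 (SE, n = 5 each; exact permutation p = 0.444, two-sided, over 252 splits). The ratio differed by -0.065 ± 0.076 for Psmb9 over Psmb6 (exact permutation p = 0.476) and by 0.024 ± 0.097 for Psmb10 over Psmb7 (exact permutation p = 0.778). Adjusted over the 3 ratios these p-values were 0.714, 0.714 and 0.778, and the smallest that this design can give is 0.0079.

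Within slide 1 the Psmb8 over Psmb5 difference was 0.13 and within slide 2 it was -0.36, so its sign depended on the slide. Psmb9 over Psmb6 gave 0.018 on slide 1 and -0.13 on slide 2, and Psmb10 over Psmb7 gave 0.061 and 0.050. Each slide held 2 or 3 arrays of a group. With the slide as a block the 3 differences were -0.11, -0.058 and 0.056. Without T replicate 5 the Psmb8 over Psmb5 difference was -0.013, so that 1 array decided its size.

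**Figure D2:**
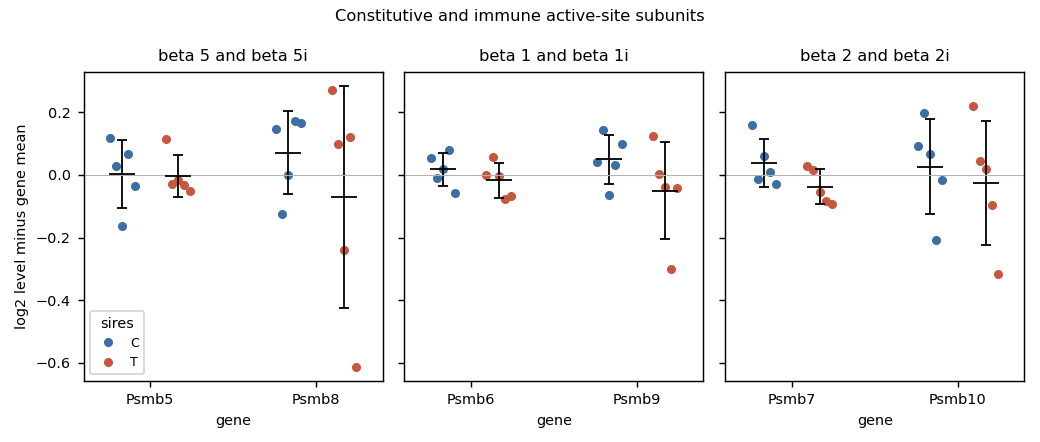
Log2 level minus the gene's mean (vertical axis) of the 3 constitutive active-site genes and their immune counterparts, with 1 point for each array, blue for C and red for T. Horizontal marks are group means and bars are 1 SD (n = 5). The immune genes spread further than the constitutive ones, and the lowest point is Psmb8 on T5.

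Other genes were ranked by how closely they followed Psmb8 over the arrays. Of 11512 genes outside the list, RT1-CE10, a class I gene of the rat MHC, had the highest Pearson r with it (0.93 over 10 arrays). RT1-CE10 read -3.33, -6.74, -3.47, -3.27 and -3.33 on C1 to C5 and -3.18, -3.32, -6.84, -3.42 and -7.98 on T1 to T5. It was not well above background on C2, T3 and T5, which were also the 3 arrays with the lowest Psmb8. Its levels there are only bounds, and how far the r depends on those 3 arrays was not tested. The ranking used the probe with the highest mean of each gene. A further probe of RT1-CE2, well above background on all 10 arrays, also had r = 0.93, but the other probe of RT1-CE2 had r = -0.71. Over the 34 tested probes of RT1 genes, r with Psmb8 went both ways, from -0.84 (RT1-Bb) to 0.93. Psmb8 lies in the MHC on rat chromosome 20, between Tap2 and Tap1 with Psmb9 as the next gene. Its neighbours differed from it on some of these arrays. Tap1 was highest on T3 (-3.08) and C2 (-3.16), while Tap2 was lowest on T5 (-1.0) and C2 (-0.86) but highest on T3 (-0.39). Psmb9 was highest on C2 (0.67). The next genes by r were Kcnk13 (0.91), Frk (0.91), Dnase2b (0.90), Cst8 (0.90), Znf846 (0.89), Rtca (0.89), Abca7 (0.88), Smim11 (0.88) and Slc35b4 (0.86). With 10 arrays and 11512 genes these are a description without a test. Class I genes are near-identical copies and differ between rat strains, and how far a probe reads 1 gene was not tested.

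**Figure D3:**
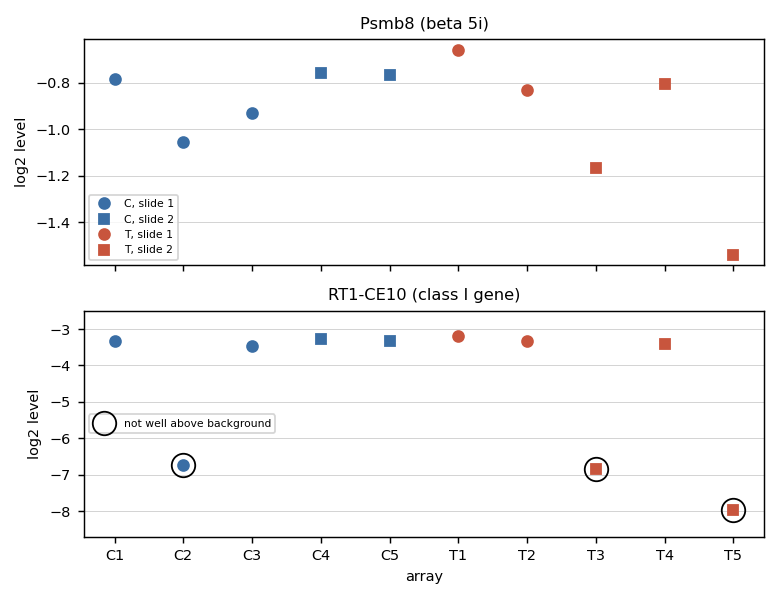
Log2 level of Psmb8 (upper panel) and RT1-CE10 (lower panel) on each array, blue for C and red for T, circles for slide 1 and squares for slide 2. Black rings mark the 3 arrays on which RT1-CE10 was not well above background (C2, T3 and T5). The same arrays hold the 3 lowest Psmb8 levels, between -1.05 and -1.54.

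The other genes of class I antigen processing were read beside the immune subunits. Of 15 listed, 13 were tested, 5 were higher and 8 lower in T, and 0 passed the adjusted threshold of 0.05 in limma. Over all probes 58.5% were lower in T. An unadjusted limma p under 0.05 was reached by 1 of the 13, against 3.97% of all probes. Pdia3, a chaperone of the peptide-loading complex, had the smallest unadjusted p, under 0.05 (-0.16 ± 0.061, SE, limma adjusted p = 0.998), followed by Canx, the chaperone calnexin (-0.23 ± 0.13), and RT1-A2 (-0.13 ± 0.081). Irf1, an interferon-responsive transcription factor, differed by 0.046 ± 0.097 (SE) between the groups. Of the lymphocyte markers, 3 of 6 on the array were tested, all 3 higher in T (0.070 to 0.11). Their mean deviation ran from -0.27 to 0.38 on C arrays and from -0.29 to 0.25 on T arrays, with T5 lowest. For 13 macrophage markers it ran from -0.12 to 0.064 and from -0.082 to 0.14. The part of these cells in the immune subunit levels was not tested.

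The testis-specific subunit was dim. Psma8 read -4.65, -4.45, -4.79, -4.35 and -4.16 on C1 to C5 and -4.38, -4.37, -4.48, -4.27 and -4.4 on T1 to T5 by its 1 tested probe. C3 and C1 were lowest and C5 highest, and all T arrays lay inside that range. The T minus C difference was 0.10 ± 0.11 (SE). It was 0.022 without C replicate 3, 0.18 without C replicate 5, 0.26 within slide 1 and -0.13 within slide 2. All 10 tested germ cell markers were higher in T, 3 of them with an unadjusted limma p under 0.05 and 0 after adjustment. Over all probes 58.5% were lower in T and 3.97% had an unadjusted p under 0.05. The mean deviation of the germ cell markers ran from -0.13 to -0.0060 on C arrays and from -0.058 to 0.27 on T arrays. What part this has in the Psma8 level was not tested. The thymus subunit Psmb11 was among the genes without a matched probe.

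The activators and the inhibitor, which bind the ends of the core in place of the 19S cap, moved little. Psme1 encodes the alpha subunit of the interferon-inducible activator PA28 and read 4.08, 4.04, 3.96, 3.93 and 3.97 on C1 to C5 and 4.1, 4.03, 4.1, 3.9 and 3.91 on T1 to T5. Psme2, its beta subunit, read 4.24, 4.37, 4.32, 4.24 and 4.3 on C1 to C5 and 4.43, 4.25, 4.39, 4.26 and 4.12 on T1 to T5. Both were low on T5 and high on T1 and T3. Psme3, the nuclear PA28 gamma, read -0.20, -0.39, -0.23, -0.43 and -0.19 on C1 to C5 and -0.49, -0.33, -0.29, -0.21 and -0.27 on T1 to T5. Its lowest array was T1, and the groups overlapped. Psme4, the activator PA200 that acts on histones in germ cells of the mouse, read 0.11, -0.13, -0.052, -0.12 and -0.013 on C1 to C5 and -0.17, -0.019, -0.024, -0.13 and -0.096 on T1 to T5. C1 was highest and T1 lowest. The other probe of Psme4 was also lowest on T1 (-0.30) but next lowest on C1 (-0.29) and highest on T3 (0.014), and its T minus C difference was 0.034 against -0.050, so the 2 probes disagreed on C1 and on the sign. Psmf1, an inhibitor of the core in vitro, read 1.29, 1.03, 1.0, 1.0 and 0.82 on C1 to C5 and 1.05, 1.06, 0.89, 0.82 and 0.96 on T1 to T5. C1 was 0.30 above the mean, and the second probe of Psmf1 was also highest there, by 0.34. The T minus C differences of the 5 genes ran from -0.075 (Psmf1) to 0.011 (Psme1), 4 of them negative, and all had a limma adjusted p of 0.998.

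Psmd14, the deubiquitinase of the lid that removes the ubiquitin chain, read -0.016, -0.0010, 0.065, 0.15 and 0.045 on C1 to C5 and 0.023, 0.038, 0.055, -0.018 and -0.027 on T1 to T5. C4 was the highest array, the others lay between -0.027 and 0.065, and the difference was -0.034 ± 0.053 (SE). The 6 ATPases of the cap differed by -0.071 to 0.017 between the groups, 5 of them lower in T. The 10 other cap subunits differed by -0.065 (Psmd7) to 0.015 (Psmd4, a ubiquitin receptor), 8 of them lower. None of the 16 had an unadjusted p under 0.05.

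Psma2 and Psmc6 varied most among the core subunits. Psma2, which encodes an alpha-ring subunit, read 2.1, 2.04, 2.1, 1.95 and 1.38 on C1 to C5 and 2.19, 2.04, 1.92, 1.88 and 1.78 on T1 to T5. All slide 1 arrays (2.04 to 2.19) lay above all slide 2 arrays (1.38 to 1.95). C5 lay 0.57 below the next C array, and without it the T minus C difference turned from 0.046 to -0.088. Psmc6, an ATPase of the cap, read -1.16, -1.12, -0.49, -1.05 and -0.97 on C1 to C5 and -1.07, -1.04, -1.11, -1.03 and -0.88 on T1 to T5. C3 lay 0.48 above the next C array, and without it the difference turned from -0.071 to 0.047. In the reference annotation 2 pseudogenes are named after each of Psma2 and Psmc6, and 19 of the 46 genes have at least 1. Whether these probes also read pseudogene transcripts was not tested.

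The assembly chaperones help to build both particles. Psmd5, Psmd9 and Psmd10 of the cap differed by -0.036, 0.051 and 0.035 between the groups. Psmg2 and Psmg4 of the core differed by -0.0032 and 0.031. Psmg4 was high on C3 (2.92) and T3 (2.83) and lay between 2.39 and 2.51 on the other 8 arrays. Its second probe was also highest on these arrays, 0.29 above its mean on C3 and 0.14 above it on T3.

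Comparing the groups asked whether treatment of the father was followed by different proteasome transcript levels in the pups. No gene of the 46 had an adjusted p under 0.05 in limma, where 0 of 21892 probes (0%) did. At an unadjusted p under 0.05 the count was also 0 of 46, against 3.97% of all probes. In 0 of 46 genes did the groups stand apart without overlap, against 0.722% of probes. The signs were 14 higher and 32 lower in T, where 58.5% of all probes were lower, and the median difference was -0.018 for the 46 genes and -0.020 for all probes. With quantile normalization 22 of the 46 were higher, within slide 1 it was 31 and without T replicate 5 it was 23, so the signs depended on the scaling, the slide and 1 array.

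The intervals bound the size of a difference. For 42 of the 46 genes the 95% interval of T minus C lay within 0.32 of 0 on the log2 scale, which held for 54.8% of all probes. Psma2, Psma8, Psmb8 and Psmc6 were the 4 genes whose interval reached further. All 46 intervals lay within 1.5-fold either way, against 86.8% of probes. The proteasome probes had smaller SDs than most, which narrows their intervals.

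Psma4 had the smallest p. This alpha-ring gene read 2.89, 2.96, 3.04, 2.92 and 2.93 on C1 to C5 and 2.99, 2.86, 2.74, 2.77 and 2.68 on T1 to T5. T5, T3, T4 and T2 lay below all C arrays, and T1 lay inside the C range. The mean level was 2.95 ± 0.06 for C and 2.81 ± 0.12 for T (SD, n = 5 each), and the difference was -0.14 ± 0.069 (SE), with an adjusted p of 0.998. It was negative in all 23 alternatives tried, but its size varied: -0.038 within slide 1, -0.19 within slide 2, -0.072 with the replicate block and -0.19 to -0.11 when 1 array was left out. Psmb7 and Psmb9, given above, had the next smallest p. By group of subunits, 4 of 7 alpha genes, 5 of 7 constitutive beta genes, 5 of 6 ATPases and 8 of 10 other cap genes were lower in T, with medians of -0.0091, -0.025, -0.034 and -0.031. Beside 58.5% of all probes lower in T, these counts carry no test.

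**Figure D4:**
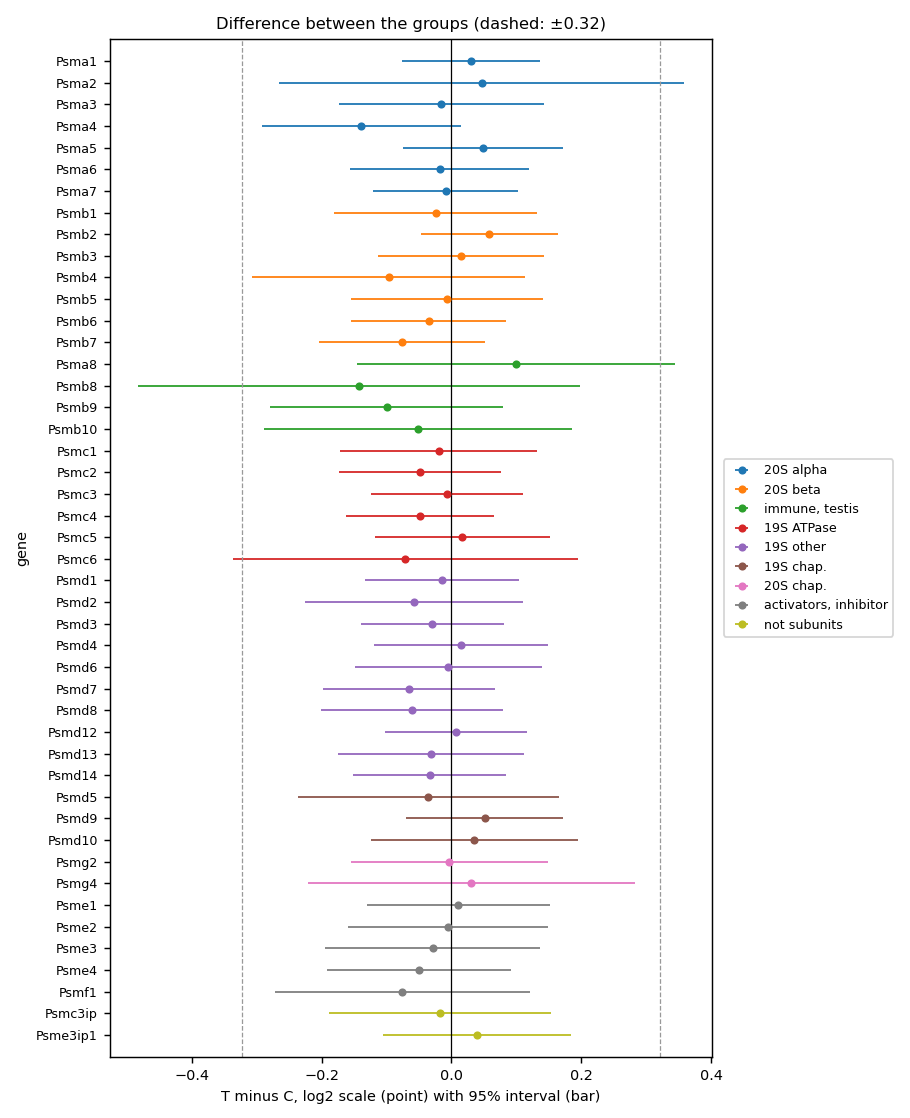
T minus C difference of each of the 46 genes on the log2 scale (points) with its 95% interval from limma (bars, n = 5 each), coloured by role. Dashed lines mark 0.32 on either side of 0. All intervals include 0, and 42 of 46 lie between the dashed lines.

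Markers of several cell types leaned one way between the groups by sign. All 4 peritubular markers were lower in T. All 10 germ cell markers, as given above, all 4 of skeletal muscle and all 4 of erythroid cells were higher. After adjustment 0 of these passed in limma. Of the Sertoli markers 6 of 8 were lower, and 4 of 5 Leydig and 3 of 4 endothelial markers were higher. An unadjusted limma p under 0.05 was reached by the germ cell markers Mael, Piwil2 and Tex101 and the endothelial markers Pecam1 and Flt1. The skeletal muscle marker Actn2 reached it as well. The share over all probes was 3.97%. The groups of Pecam1 did not overlap, against 0.722% of probes. The mean of the 30 core subunits deviated by -0.020 to 0.036 on C arrays and by -0.054 to 0.045 on T arrays. T5 and T4 were the lowest. The median over all tested probes deviated by -0.041 to 0.090 on C arrays and by -0.048 to 0.030 on T arrays. There too T4 was the lowest, with T5 at -0.033. The part of the cell mix in these values was not tested. The slide term was passed by 0 of the 46 genes, against 9.79% of all probes, and the lowest adjusted p was that of Psma2 (0.074, limma).

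Partners of the proteasome and the ubiquitin genes were read the same way. Of 21 listed partners and regulators, 15 were tested, 8 were higher and 7 lower in T, and the unadjusted p was under 0.05 in 0. The smallest p-values belonged to Ubqln1, a shuttle for ubiquitinated proteins (-0.11 ± 0.062), Pomp, the maturation factor of the core (-0.096 ± 0.058), and Ubqln2 (-0.094 ± 0.060). Nfe2l1 and Nfe2l2, factors that induce proteasome genes under stress, differed by 0.064 ± 0.068 and 0.025 ± 0.067. Of 17 ubiquitin genes 15 were tested, 4 higher and 11 lower, with 0 at an unadjusted p under 0.05. Over all probes 58.5% were lower. Vcp, the segregase that extracts ubiquitinated proteins, had the smallest p there (-0.094 ± 0.065), then Uba6, an activating enzyme (-0.096 ± 0.084), and Uba1, the main one (-0.057 ± 0.059).

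Core subunits assemble in fixed proportions, which raises the question whether their transcripts vary together. Over the 10 arrays the median Pearson r of the 435 pairs of 30 core subunits was 0.11, with an interquartile range of -0.19 to 0.43. The median was 0.11 as well for all pairs of probes above the 75th percentile, and 0.84 for 79 cytosolic ribosomal protein genes on the same arrays. The median was 0.35 among the 7 constitutive beta genes, 0.0040 among the 7 alpha genes, -0.045 among the 6 ATPases and 0.045 among the 10 other cap genes. All these pairs share the same 10 arrays and the same scaling. The median SD over the arrays was 0.0725 for the core subunits and 0.167 for the ribosomal genes. Spots of a proteasome probe differed by a median SD of 0.042. What part the smaller spread of the core subunits has in their lower r was not tested.

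With slide means removed the core median was 0.15. Within slide 1 it was 0.0052 and within slide 2 it was 0.31, from 5 arrays each. It ranged from 0.066 to 0.18 when 1 array was left out. An r above 0.8 was seen in 11 of the 435 pairs, led by Psmb1 with Psmb4 (0.93), Psma6 with Psmc2 (0.90) and Psmb4 with Psmd2 (0.89). Psmb4 with Psmb7 (0.82) was the other such pair inside the beta ring. With slide means removed these 4 pairs stood at 0.83, 0.88, 0.72 and 0.63. The share above 0.8 among all pairs of probes was not counted, so the 11 are only a description.

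Against the mean of the other core subunits, Psmd1, the scaffold of the cap base, followed most closely (r = 0.83), then Psmb6 (0.80), Psmb4 (0.78), Psmb1 (0.76) and Psma4 (0.74). With slide means removed the order changed: Psmd14 led (0.89), Psmd1 stood at 0.79, Psmb6 at 0.73, Psmb4 at 0.62, Psmb1 at 0.57 and Psma4 at 0.56. Of the 30 core subunits 22 had a positive r and 8 a negative one, down to Psmd4 (-0.63). With slide means removed 27 were positive, and Psmd4 stood at 0.22, so its sign rested on the slides. Of the genes outside the core, the assembly chaperone Psmg2 (0.70) and the immune subunits Psmb8 (0.62), Psmb9 (0.55) and Psmb10 (0.55) were positive, as were Psmf1 (0.56), Psme2 (0.47), Psme1 (0.46) and Psmc3ip (0.46). With slide means removed r was 0.62 for Psmg2, 0.58 for Psmb8, 0.41 for Psmb9 and 0.34 for Psme2, but only 0.18 for Psmf1 and Psme1, 0.096 for Psmb10 and -0.026 for Psmc3ip. Psme3 (-0.59) and its partner Psme3ip1 (-0.72) were negative, and stayed so with slide means removed (-0.58 and -0.54). These r values are a description over 10 arrays.

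The genes outside the list most like the mean of the core subunits were Ndufc2 (r = 0.94), Akr1b1 (0.94), Ndufs8 (0.93), Gdi2 (0.92), Fzr1 (0.92), Rnf139 (0.92), Or52m1 (0.91), Atp5f1c (0.91), Lsm5 (0.91) and Txndc9 (0.91). Ndufc2, Ndufs8 and Atp5f1c encode parts of the mitochondrial respiratory chain and ATP synthase, and Fzr1 an activator of a ubiquitin ligase of the cell cycle. They are the 10 highest of 11512 genes over 10 arrays, without a test.

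**Figure D5:**
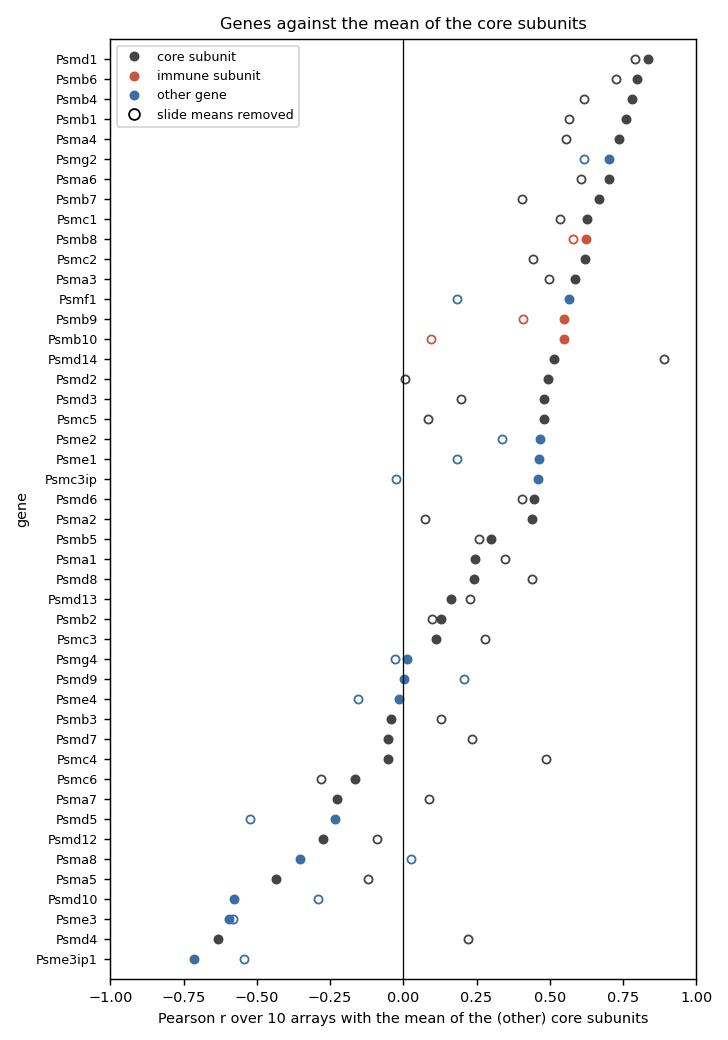
Pearson r over the 10 arrays (horizontal axis) of each gene with the mean of the core subunits, leaving out the gene itself where it is one. Filled points use the levels, and open points use levels with slide means removed. The filled points run from 0.83 for Psmd1 to -0.72 for Psme3ip1, with the 3 immune subunits between 0.55 and 0.62. The open points of the immune subunits lie between 0.096 (Psmb10) and 0.58 (Psmb8).

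Pairs of subunits, of exchange partners or of neighbouring genes were tested one by one, 12 in all. Psme1 with Psme2, the 2 subunits of PA28, had r = 0.68 (permutation p = 0.028) and Spearman rho = 0.58 (permutation p = 0.088), and r = 0.65 without the 2 arrays farthest from the median. Psmb6 with Psmb7 had r = 0.72 (permutation p = 0.017) and rho = 0.76 (permutation p = 0.016). Psmc1 with Psmd1 had r = 0.72 (permutation p = 0.018) and rho = 0.69 (permutation p = 0.034). Adjusted over the 12 pairs the p-values of r were 0.11, 0.11 and 0.11, so 0 pairs passed. With slide means removed the 3 values of r were 0.63, 0.61 and 0.66.

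Among the immune subunits, Psmb8 with Psmb9 had r = 0.14 (permutation p = 0.652) and rho = 0.42 (permutation p = 0.233). Psmb8 with Psmb10 had r = 0.48 (permutation p = 0.160) and rho = 0.21 (permutation p = 0.560). Without T3 and T5 these 2 values of r fell to -0.0060 and -0.24, so they rested on those arrays. Psmb9 with Psmb10 had r = 0.46 (permutation p = 0.188) and rho = 0.58 (permutation p = 0.089), and r = 0.41 without the 2 farthest arrays. Psmb9 with Tap1, which lie head to head, had r = 0.32 (permutation p = 0.355) and rho = 0.38 (permutation p = 0.280), and r = -0.13 without C2 and T4. Psmb8 with Tap1 had r = -0.37 (permutation p = 0.280) and rho = -0.33 (permutation p = 0.350). The exchange partners Psmb5 and Psmb8 had r = 0.40 (permutation p = 0.261) and rho = 0.50 (permutation p = 0.145).

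The other pairs were constitutive subunits of the core. Psmb5 had r = 0.35 with Psmb6 (permutation p = 0.332; rho = 0.47, permutation p = 0.180) and r = 0.37 with Psmb7 (permutation p = 0.295; rho = 0.44, permutation p = 0.206). Without the 2 arrays farthest from the median these were 0.50 and 0.72. Psma1 with Psmb1 had r = 0.12 (permutation p = 0.742) and rho = 0.21 (permutation p = 0.561), and r = 0.17 without 2 arrays. For the 9 pairs beside the first 3, the adjusted p-values of r were at least 0.426 and those of rho at least 0.267.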

How the data were processed

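Rat testis RNA was measured on 10 one-colour arrays, 5 for each letter of the sire code. The authors' deposited scanner files hold spot intensities which, per the file headers, came from Agilent Feature Extraction 10.7.3.1 (10.7 per the submitters' processing notes) and were background-subtracted but not scaled between arrays. The authors' own log2 table of processed values correlated with them at 0.9978 to 0.9987 (per array, centred per probe) and served as an alternative. Its scaling between arrays stays unknown.

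From the log2 of the processed signal, that of the array's 75th percentile (58717 non-control spots) was subtracted. Between 494 and 745 outlier-flagged spots of an array were dropped, no spot (0) being saturated. Each probe is the mean of its spots, and 21892 of 30367 probes well above background on at least 5 arrays were tested. The number of arrays limits the precision. Transcripts were matched without version to a RefSeq table of the GRCr8 assembly (17998 probes with a symbol). Headers of 5 arrays name rn4, so no coordinates other than promoters from RefSeq are given.

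Groups were compared with limma 3.58.1 in R 4.3.3 (lmFit, eBayes, two-sided, no covariate), adjusted by Benjamini-Hochberg over all tested probes, and checked on simulated data. Ratios had an exact permutation test over samples, pair correlations 100000 permutations. Members and lists were chosen with earlier results of these data known. Values on every array were given for the active-site, immune and testis subunits, the activators and inhibitor and Psmd14, and for the 3 members with the smallest p, the largest and the smallest SD. Beyond them, genes with a value far from their group were named after their values were seen. Sire numbers 2, 4 and 6 occur in both groups, but the correlations of the deviations were -0.51, 0.28 and 0.19, so the numbers were not taken to pair arrays.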

Additional observations from a re-analysis of the deposited data

Results flagged for a closer look

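In a group of 5 arrays, the gap between an extreme array and its nearest neighbour was divided by the range of the group, and the critical value is 0.71. Of 92 groups (46 genes in C and in T) 8 passed (8.7%), where chance gives about 5%. The ratio was 0.797 for Psma2, low on C5, 0.792 for Psmb5, high on T1, and 0.712 for Psmc6, high on C3. It was 0.806 for Psmd13, a cap subunit low on C3 (0.68), and 0.745 for Psmd3, high on C1 (0.65). It was 0.732 for Psmd6, low on C1 (2.71), and for Psmg4 it was 0.834 on C3 and 0.918 on T3, both high. On the log2 scale the gaps were 0.57 for Psma2, 0.48 for Psmc6 and 0.44 and 0.32 for Psmg4, and between 0.075 (Psmd3) and 0.18 (Psmd6) for the other 4. The causes were not tested.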

How the results depend on the processing

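Under all 23 alternatives, the number of proteasome genes and of all probes with an adjusted p under 0.05 in limma was 0. Normexp was run on the median spot signal. The number of genes higher in T (14) was 22 with quantile normalization, 31 within slide 1, 28 with the sire numbers as replicate block (6 arrays) and 11 to 23 over the others, with 12 to 23 when 1 array was left out (23 without T replicate 5). The median difference (-0.018) was 0.016 within slide 1, 0.0059 with the replicate block and 0.0004 without T replicate 5. Within slide 1 the sign also turned for Psmb5 (0.047), Psmb6 (0.0071), Psmb8 (0.18), Psmb9 (0.025), Psmb10 (0.013), Psmb8 over Psmb5 (0.13) and Psmb9 over Psmb6 (0.018), and within slide 2 for Psma8 (-0.13). With the replicate block it turned for Psmb5 (0.0014), Psmb6 (0.015), Psmb7 (0.0065), Psmb10 (0.10) and Psma8 (-0.092). Psmb5 was also positive with quantile normalization (0.028), the authors' values (0.0045), the second sire number as a term (0.0046) and without C replicate 1 (0.022, the highest when 1 array was left out, with -0.049 as the lowest), C replicate 4 (0.0092), T replicate 4 (0.0003) or T replicate 5 (0.0054). Without 1 array the sign turned for Psmb10 (0.021 without T replicate 5, lowest -0.11), Psma2 (-0.088 without C replicate 5 and -0.010 without T replicate 1, highest 0.093) and Psmc6 (0.047 without C replicate 3, lowest -0.12). Psmb10 over Psmb7 (0.024) was -0.016 with normexp and between -0.028 (without C replicate 4) and 0.083 when 1 array was left out, with -0.021 without T replicate 1. Over the same omissions Psmb8 over Psmb5 ran from -0.19 to -0.013 and Psmb9 over Psmb6 from -0.10 to -0.017. The median r of the core (0.11) was 0.0052 within slide 1, 0.31 within slide 2 and 0.33 with the replicate block. Leaving out the 2 arrays farthest from the median turned r of Psmb8 with Psmb9 (-0.0060), Psmb8 with Psmb10 (-0.24) and Psmb9 with Tap1 (-0.13). Fewer arrays enter the fits within a slide or block, and other causes were not tested.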

Other observations

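RT1 genes of the rat MHC were read on all arrays after the values of RT1-CE10 had been seen, 34 tested probes of 28 RT1 genes. RT1-T24-4 was lowest on T5 (-1.98), C2 (-1.58) and T3 (-0.62), and between -0.50 and -0.06 on the other 7 arrays. The 2 probes of RT1-CE2 went opposite ways: r with Psmb8 over the 10 arrays was 0.93 for one and -0.71 for the other. RT1-CE16 was highest on C2 (1.82) and T5 (1.65), and between 0.90 and 1.06 on the other 8, T3 included (1.05). The slide term was passed by 1 of the 15 tested proteasome partners, against 9.79% of all probes. It was Ubqln4, lower by -0.47 on slide 2 (adjusted p = 0.00189, limma).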
